A study of Mus musculus with 16 samples.

Results

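The comparison described here is between 2 sets of 4 adult neural stem cell cultures whose ribosome footprints were read in libraries built with identifiers of different length. It takes the 8 footprint libraries of the 16 libraries in the series and sets replicates 1 and 2 (2 wild-type and 2 Fmr1 knockout cultures, molecular identifier of 5 nt) against replicates 3 and 4 (2 wild-type and 2 knockout cultures, identifier of 8 nt), with genotype held as a covariate, so that 4 cultures stood on each side. The cells were grown from dentate gyri of FVB/N males, 8 to 10 weeks of age. The mice were wild-type (WT) or Fmr1 knockout (KO, Fmr1 -/y) littermates, and EGF and FGF2 were present in the medium of all cultures (20 ng/ml of each). Cultures of both genotypes were given 100 µg/ml cycloheximide, a drug that halts ribosomes on the mRNA, 10 min ahead of lysis. The monosome fraction after digestion with RNases A and T1 gave the footprints, and RNA from the same lysate gave the matched RNA library. Per the labels, each replicate is an independent isolation of cells, and the number of animals behind 1 isolation is not given. Identifier length went with the split in every footprint library, so a difference between the cultures and a difference in library construction cannot be told apart from the footprints alone. The RNA libraries of the same cultures were built with another kit, for which no identifier is named, and the direction of each difference was therefore set beside theirs. WT 1 stands for the wild-type culture of replicate 1, KO 3 for the knockout culture of replicate 3, and so on.

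Ribosome profiling sequences the stretches of mRNA that ribosomes shield from nuclease, so a gene's footprint level follows both how much of its mRNA is present and how densely ribosomes load it. Immediate early genes such as Fos and Jun are transcribed within minutes of growth factor or stress signals, through serum response factor and CREB, and their mRNAs decay quickly. Astrocyte genes such as Apoe and Gfap are expressed at some level by adult neural stem cells, which share a lineage with astrocytes. Ribosomal protein mRNAs carry a 5′ terminal oligopyrimidine (TOP) tract, a start of C followed by pyrimidines, through which mTORC1 adjusts their translation.

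Footprint libraries held 13099475 to 17220236 counts in replicates 1-2 and 9430732 to 10849981 in replicates 3-4, so the depth ranges did not overlap, whereas RNA libraries held 5343042 to 6600023 counts. With all footprint libraries thinned to 9397586 counts on named genes, 2036 genes were called against 2185 at full depth. Correlations of log2 CPM (counts scaled to library size) between footprint libraries ran from 0.915 to 0.969 within a set and from 0.837 to 0.942 across sets, and the first principal component, with 44.6% of the variance, separated the sets. WT 1 stood apart from the other libraries of replicates 1-2 on that component. Fmr1 itself followed the labels, with 129 and 149.8 CPM in WT 1 and WT 2, 149 and 149 CPM in WT 3 and WT 4, 24.1 and 27.0 CPM in KO 1 and KO 2 and 12.7 and 14.7 CPM in KO 3 and KO 4. The mean knockout footprint level was 18.3% of wild type in replicates 1-2 and 9.21% in replicates 3-4. None of the neural stem and progenitor markers was at 0, and their summed level was 10316 to 15329 CPM in replicates 1-2 and 8055 to 11625 CPM in replicates 3-4. Nes, the intermediate filament nestin of neural stem cells, read 1241 to 2090.5 CPM and 2213 to 2759 CPM in the footprints of the first and second set.

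Of 11472 genes tested, 867 were higher and 1318 lower in the footprints of replicates 3-4 than of replicates 1-2. These are 7.56% and 11.5% of the genes, 19% in all, at an adjusted p under 0.05. Adjusted p-values here come from edgeR's quasi-likelihood test with Benjamini-Hochberg adjustment over all genes tested, and a log2 difference is replicates 3-4 over replicates 1-2 unless stated otherwise. The 4 libraries of one set lay wholly above or below the 4 of the other in 3626 genes, or 31.6%. The number of calls depended on single libraries: leaving out 1 library at a time gave 319 calls without WT 3, 503 without WT 4, 572 without KO 2, 826 without KO 4, 1166 without KO 3, 1345 without KO 1, 1933 without WT 1 and 2222 without WT 2. With both genotypes of a replicate number left out, 1 gene (Ctsc, a lysosomal protease) was called without replicate 3 and 0 without replicate 4 (2834 genes at an unadjusted p under 0.05), and 1054 without replicate 2. The wild-type libraries alone gave 0 calls with edgeR (2062 genes at an unadjusted p under 0.05), the knockout libraries alone 70, and a fit that treated same-numbered cultures as correlated (limma-voom) gave 1017. With KO 3 and KO 4 both left out, a choice made after the data had been seen, edgeR called 2 genes, Mapt and Pcdhga7 (2824 at an unadjusted p under 0.05). In that fit the median log2 difference was -3.26 for immediate early genes, -2.03 for astrocyte markers and 0.95 for ribosomal protein genes, with no member called. Of the calls 39.7% were higher in replicates 3-4, against 25.5% of 2034 calls by limma on log2(TPM + 1) from the deposited table of TPM (transcript abundance per length).

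Most genes called in the footprints had the same direction in the RNA of the same cultures. In the RNA libraries 1339 genes (12.1% of 11097 tested) were higher and 1457 (13.1%) lower in replicates 3-4, 25.2% in all (41.7% at an unadjusted p under 0.05), and the RNA sets did not overlap in 31.2%. The RNA calls numbered 1091 without WT 4, 1280 without KO 2, 1329 without WT 3, 1516 without KO 4, 695 without replicate 2, 623 without replicate 3 and 5 without replicate 4. Of the 2106 genes called in the footprints and tested in RNA, 2000 (95.0%) had the same sign of log2 difference in RNA, against 8347 of all 10863 genes tested in both (76.8%). Among genes called lower in footprints 1230 of 1265 were also lower in RNA, and among genes called higher 770 of 841 were also higher. The 1184 genes called in both assays make up 56.2% of the footprint calls tested in RNA and 42.8% of the RNA calls tested in footprints, and 0 of them had opposite signs. Across genes, which are not independent replicates, the log2 differences of the 2 assays correlated at r = 0.788 (Spearman's rho 0.736). Footprints and RNA of a culture come from 1 lysate, so they share whatever differed between the cultures.

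**Figure D1:**
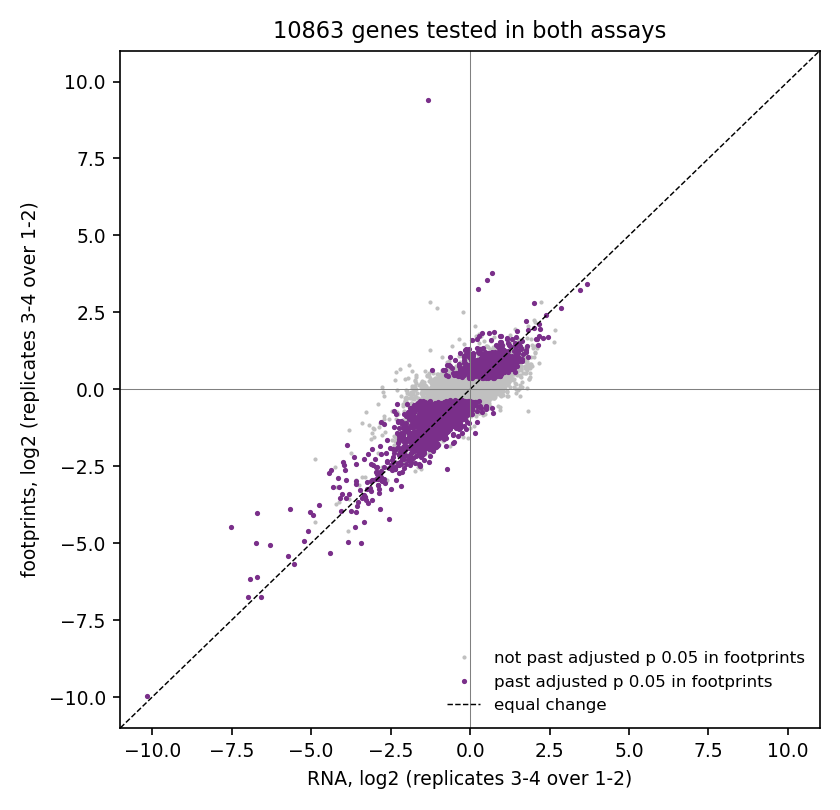
Each point is 1 of the 10863 genes tested in both assays, with the log2 difference between replicates 3-4 and replicates 1-2 in RNA on the horizontal axis and in footprints on the vertical axis. Genes called in the footprints lie mostly at the lower left and upper right: 2000 of 2106 have the same sign on both axes.

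Many immediate early genes were lower in the footprints of replicates 3-4, and within replicates 1-2 most of their excess sat in the cultures of replicate 1. Of 32 members tested, 16 were called lower, where 11.5% of all genes were, and 0 higher, with a median log2 difference of -3.14 where the median over all genes was 0.00. In RNA, 23 of 32 were called lower, where 13.1% of all genes were, and the median was -3.36. Together these genes took 1.13% of footprint counts in WT 1 and 0.813% in KO 1, but 0.129% and 0.132% in WT 2 and KO 2 and between 0.0903% and 0.108% in replicates 3-4. The median member was 8.34 times higher in replicate 1 than in replicate 2 and 1.55 times higher in replicate 2 than in replicates 3-4, and in 30 of 32 members the replicate 1 culture exceeded the replicate 2 culture in both genotypes. Serum response factor and CREB act through short upstream sites, and the 5 members whose windows hold a match are shown to make those sites visible. The windows run from 250 bases before to 50 bases after the start of each RefSeq gene (GRCm38.p6, 5′ to 3′ on the gene's strand), and capitals mark each match.
Zfp36 (chr7:28379262-28379301, minus strand): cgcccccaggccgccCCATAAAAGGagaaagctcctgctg
Srf (chr17:46556210-46556249, minus strand): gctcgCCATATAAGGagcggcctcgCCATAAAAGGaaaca
Dusp5 (chr19:53529053-53529092, plus strand): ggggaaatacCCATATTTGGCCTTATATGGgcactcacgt
Btg2 (chr1:134079298-134079337, minus strand): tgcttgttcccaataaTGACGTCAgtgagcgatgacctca
Dusp1 (chr17:26508592-26508631, minus strand): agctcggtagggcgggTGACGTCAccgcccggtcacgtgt
In Zfp36, Srf and Dusp5 the capitals are CArG boxes, the site of serum response factor. The box of Zfp36 starts 58 bases before the start, and Srf and Dusp5 hold 2 boxes each, which start 82 and 62 bases before it in Srf and, back to back, 82 and 72 bases before it in Dusp5. In Btg2 and Dusp1 they are TGACGTCA, the full CREB site, at 166 and 143 bases before the start. Both strands were searched, and the palindromic CREB site reads the same on each. A CArG box was found in 3 of 25 immediate early genes with a window (12.0%) and in 425 of all 27025 windows (1.57%), and TGACGTCA in 2 of 25 (8.0%) and 507 of 27025 (1.88%). A match is a description of the letters and was not tested as a site.

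Fos (chromosome 12, 85473890 to 85477274), a subunit of the AP-1 transcription factor, read 2137 and 57.8 CPM in WT 1 and WT 2 and 1979 and 79.4 CPM in KO 1 and KO 2. In replicates 3-4 its footprint level was 15.4 and 10.6 CPM in WT 3 and WT 4 and 10.5 and 4.45 CPM in KO 3 and KO 4. The 2 cultures of replicate 1 were far above the other 6, and the 2 cultures of replicate 2 were in turn above all 4 of replicates 3-4, so the sets did not overlap. The log2 difference was -6.74 ± 1.41 (SE) in footprints (adjusted p = 0.0213) and -6.98 ± 0.82 in RNA (adjusted p = 0.00688). RNA of Fos was at 4046 and 749 CPM in WT 1 and WT 2, 3022 and 861 CPM in KO 1 and KO 2, and from 5.94 to 46.5 CPM in replicates 3-4, so in RNA too replicate 2 lay between replicate 1 and replicates 3-4. With both replicate 1 cultures left out, the footprint difference of Fos was -2.82 (adjusted p = 0.0225). Fos passed in 2 of the 8 fits that left out 1 library and missed without WT 1, WT 3, WT 4, KO 1, KO 3 and KO 4, with an adjusted p of up to 0.0676. Fosb, a second AP-1 subunit (chromosome 7, 19302696 to 19310118), repeated this order, with 631 and 4.18 CPM in WT 1 and WT 2, 470.0 and 12.7 CPM in KO 1 and KO 2, 0.507 and 0.324 CPM in WT 3 and WT 4 and 0 and 0.278 CPM in KO 3 and KO 4. Its log2 difference was -9.96 ± 2.09 in footprints (adjusted p = 0.0215) and -4.84 without replicate 1 (adjusted p = 0.0309). Fosb passed in 4 of the 8 fits that left out 1 library and missed without WT 3, WT 4, KO 3 and KO 4, with an adjusted p of up to 0.0691.

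Nr4a1, an orphan nuclear receptor (chromosome 15, 101253902 to 101274795), had footprint levels of 747 and 8.74 CPM in WT 1 and WT 2 and 461 and 15.9 CPM in KO 1 and KO 2. The WT 3 and WT 4 libraries held 1.01 and 5.08 CPM and the KO 3 and KO 4 libraries 3.81 and 1.20 CPM. Its log2 difference of -6.76 ± 1.62 (adjusted p = 0.0294) became -2.13 and missed the threshold without replicate 1 (adjusted p = 0.101). Egr3, a zinc-finger transcription factor, and Atf3, a stress-induced bZIP factor, were lower, with log2 differences of -6.18 and -5.33 (adjusted p = 0.0354 and 0.0313), and without replicate 1 of -1.64 and -1.61 (adjusted p = 0.0701 and 0.0335). Of the members shown above by sequence, Zfp36, which speeds decay of AU-rich mRNAs, read 5.63 to 123 CPM in replicates 1-2 and 1.51 to 2.87 CPM in replicates 3-4, Btg2, an antiproliferative regulator, 65.7 to 530.1 and 15.2 to 53.8 CPM, and Dusp1, a phosphatase of MAP kinases, 13.9 to 111 and 4.26 to 6.41 CPM. The sets of these 3 genes did not overlap, and in 16% of all genes tested replicates 3-4 lay wholly below replicates 1-2. Srf and Dusp5, the other members shown by sequence, read 11.8 to 84.6 and 29.5 to 183 CPM in replicates 1-2. Their means in replicates 3-4, 22.3 and 42.4 CPM, were above both cultures of replicate 2, so their sets overlapped. The list as a whole was called most often without WT 2 (25 of its members lower), 4 times without WT 1, and once each without WT 3, WT 4 or KO 4. Without both replicate 1 cultures its median log2 difference was -0.62, with 9 members called lower and 1 higher. With same-numbered cultures treated as correlated (limma-voom) 2 members were called lower.

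**Figure D2:**
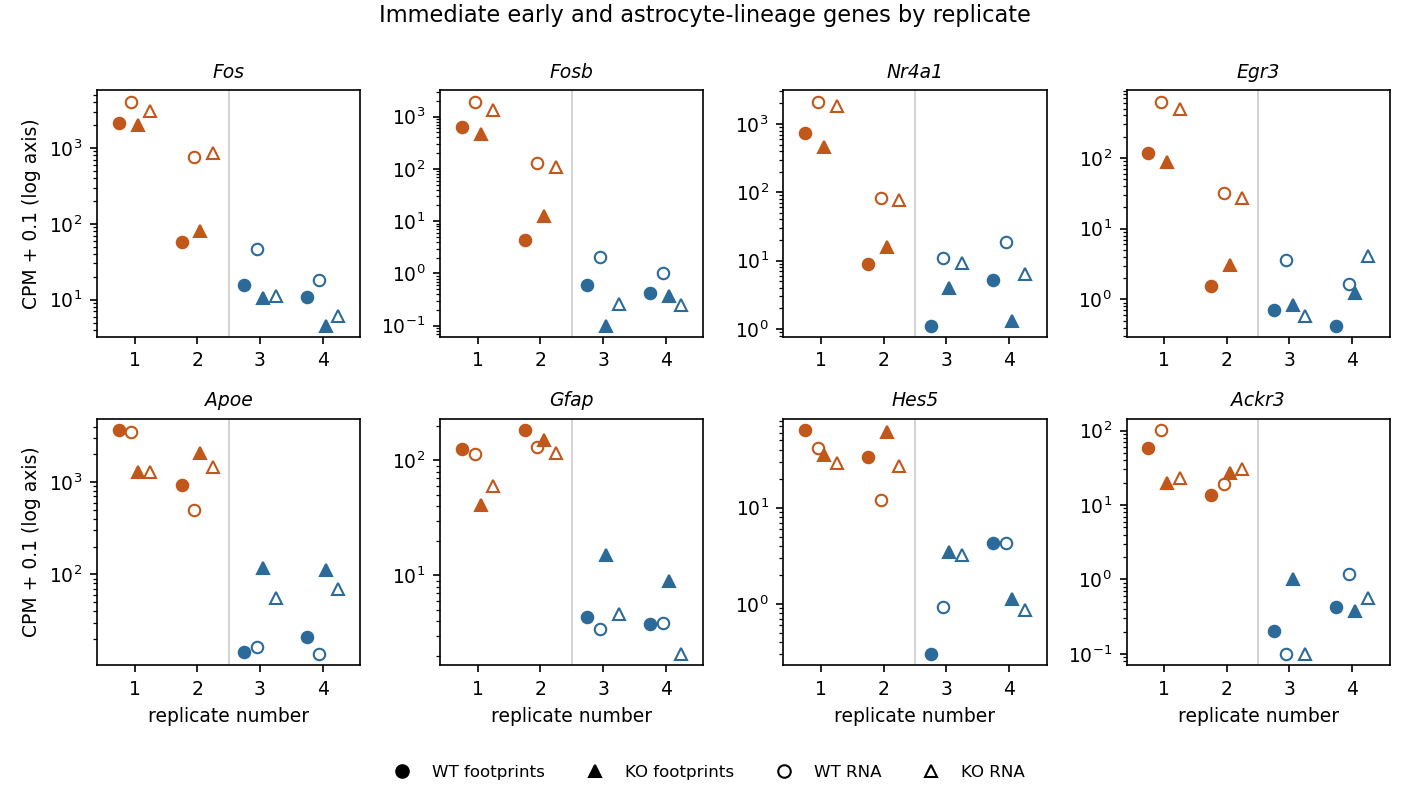
CPM + 0.1 on a log axis by replicate number for 8 genes, with filled symbols for footprints, open symbols for RNA, circles for WT, triangles for KO, and the 2 sets in different colours. Fos, at 2137 and 1979 CPM in WT 1 and KO 1 and at most 79.4 CPM in the other footprint libraries, shows the step between replicate 1 and replicate 2 that Apoe and Gfap do not show.

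Genes of EGF and FGF signalling did not move in 1 direction. In the list of receptors and ERK feedback genes, 4 of 20 were called higher and 2 lower, where 7.56% and 11.5% of all genes were. The share called lower was thus no larger than that of all genes. When 1 library was left out, 0 to 3 were called higher and 0 to 6 lower (6 without WT 2). Etv5, an ETS factor induced by FGF signalling, read 349 to 455 CPM in replicates 1-2 and 511 to 844 CPM in replicates 3-4, a log2 difference of 0.77 ± 0.17 (adjusted p = 0.0247). It passed in 3 of the 8 fits that left out 1 library and missed without WT 3, KO 1, KO 2, KO 3 and KO 4, with an adjusted p of up to 0.0817. Dusp6, a phosphatase of ERK, was higher by 0.61 ± 0.16 (adjusted p = 0.0376), a call that every one of the 8 single-library omissions ended, with an adjusted p of up to 0.110. The receptors Egfr and Fgfr3 were lower, with log2 differences of -1.19 ± 0.31 and -2.02 ± 0.46 (adjusted p = 0.0368 and 0.0259). Egfr passed in 2 of the 8 fits that left out 1 library and missed without WT 3, WT 4, KO 1, KO 2, KO 3 and KO 4, with an adjusted p of up to 0.107. Fgfr3 passed in 1 of the 8 fits that left out 1 library and missed without WT 1, WT 3, WT 4, KO 1, KO 2, KO 3 and KO 4, with an adjusted p of up to 0.0707. All 4 of these genes had the same sign in RNA, with log2 differences of 0.81, 0.62, -1.30 and -1.78.

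Most astrocyte markers were lower in the footprints of replicates 3-4, and the calls of Apoe and Gfap held without any single library. Of 19 astrocyte markers tested, 12 were called lower, where 11.5% of all genes were, and 0 higher, with a median log2 difference of -1.03. In RNA 10 of 18 were called lower, where 13.1% of all genes were. The list's summed footprint level was 5781 to 13445 CPM in replicates 1-2 and 3279.5 to 5658 CPM in replicates 3-4, so the sets did not overlap. Apoe, the main lipid carrier of the brain (chromosome 7, 19696244 to 19701310), read 3676 and 930.0 CPM in WT 1 and WT 2 and 1287 and 2046 CPM in KO 1 and KO 2. Against these, WT 3 and WT 4 had 14.2 and 20.9 CPM and KO 3 and KO 4 118 and 111 CPM. Unlike Fos, Apoe was not split between replicates 1 and 2 in 1 direction: WT 1 was above WT 2, while KO 1 was below KO 2. Its log2 difference was -5.42 ± 0.85 in footprints (adjusted p = 0.0123) and -5.73 ± 0.80 in RNA (adjusted p = 0.00751), and it passed in all 8 fits that left out 1 library. Gfap, the astrocyte intermediate filament (chromosome 11, 102887336 to 102897200), had footprint levels of 125 and 184 CPM in WT 1 and WT 2 and 40.5 and 151 CPM in KO 1 and KO 2. For WT 3 and WT 4 the level was 4.26 and 3.68 CPM, and for KO 3 and KO 4 15.0 and 8.90 CPM. Its lowest library of replicates 1-2, KO 1, was above the highest of replicates 3-4, KO 3. The log2 difference of Gfap was -4.07 ± 0.63 (adjusted p = 0.0123), also in all 8 such fits, and -4.94 in RNA.

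Other members of the list with the same sign were Slc1a2, a glial glutamate transporter, at 72.5 to 276 CPM in replicates 1-2 against 12.1 to 50.0 CPM, and S100b, a calcium-binding protein, at 25.1 to 90.5 against 2.70 to 6.80 CPM. Slc1a2 was lower, with a log2 difference of -2.95 ± 0.53 (adjusted p = 0.0150). Slc1a2 passed in 6 of the 8 fits that left out 1 library and missed without WT 3 and WT 4, with an adjusted p of up to 0.0585. S100b was lower, with a log2 difference of -2.96 ± 0.51 (adjusted p = 0.0142). S100b passed in 7 of the 8 fits that left out 1 library and missed without WT 3, with an adjusted p of up to 0.0522. Ntsr2, a neurotensin receptor, averaged 30.0 CPM and 1.65 CPM in the first and second set, which overlapped through its KO 1 library, a log2 difference of -3.67 ± 0.96 (adjusted p = 0.0364). Ntsr2 passed in 3 of the 8 fits that left out 1 library and missed without WT 3, WT 4, KO 2, KO 3 and KO 4, with an adjusted p of up to 0.120. Itih3 and Ackr3, outside the list, were among the 10 largest falls of called genes whose sets did not overlap and whose mean footprint level was at least 5 CPM. Itih3, an inter-alpha-trypsin inhibitor heavy chain, read 45.7 and 15.7 CPM in WT 1 and WT 2 and 25.6 and 30.0 CPM in KO 1 and KO 2. In WT 3 and WT 4 it had 0.101 and 0.757 CPM and in KO 3 and KO 4 1.21 and 0.185 CPM. Ackr3, a scavenging receptor for CXCL12, went from 13.7 to 57.8 CPM in replicates 1-2 to 0.101 to 0.929 CPM in replicates 3-4, a log2 difference of -6.09 ± 0.71 (adjusted p = 0.00969). Itih3 had a log2 difference of -5.68 ± 0.65 (adjusted p = 0.00969), and both Itih3 and Ackr3 passed in all 8 single-library omissions. Over the whole astrocyte list the calls numbered 3 without WT 3 and 12 without WT 2, and 10 without both replicate 1 cultures.

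Some Notch pathway and oligodendrocyte lineage genes were lower as well. In the Notch list 7 of 17 members tested were called lower, where 11.5% of all genes were, and 0 higher, with a median log2 difference of -0.51. Between 3 and 8 were called when 1 library was left out (3 without WT 3, WT 4, KO 2, KO 3 or KO 4, and 8 without WT 2). Hes5, a transcriptional repressor induced by Notch (chromosome 4, 154960626 to 154962372), read 64.1 and 33.8 CPM in WT 1 and WT 2 and 35.4 and 61.6 CPM in KO 1 and KO 2. The WT 3 and WT 4 libraries held 0.203 and 4.22 CPM and the KO 3 and KO 4 libraries 3.35 and 1.02 CPM. All 4 libraries of replicates 3-4 were below all 4 of replicates 1-2. The log2 difference of Hes5 was -4.47 ± 0.68 in footprints (adjusted p = 0.0118, kept in all 8 omissions) and -3.62 in RNA (adjusted p = 0.00932). Hey1, another Notch-induced repressor, was lower, with a log2 difference of -1.30 ± 0.28 (adjusted p = 0.0225). Hey1 passed in 3 of the 8 fits that left out 1 library and missed without WT 3, WT 4, KO 2, KO 3 and KO 4, with an adjusted p of up to 0.0667. The receptors Notch1, Notch2 and Notch3 and the DNA-binding factor Rbpj, through which Notch acts, did not pass, with log2 differences of -0.54, -0.51, -0.49 and -0.22. Of 15 BMP and Id genes, which mark quiescence in adult neural stem cells, 3 were called lower (1 without WT 3, WT 4 or KO 2), among them Id4 (3.74 to 22.6 CPM in replicates 1-2 and 0.279 to 1.95 CPM in replicates 3-4, log2 difference -3.41 ± 0.62, adjusted p = 0.0153), which missed without KO 2 alone (adjusted p = 0.0521).

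Of the 18 neural stem and progenitor markers tested, 4 were called lower, where 11.5% of all genes were, and 0 higher. The 4 were Egfr and Hes5 again, and the SOX factors Sox2 and Sox9. Sox2, a factor that maintains neural stem cells, read 215 to 364 CPM and 112 to 169 CPM in the first and second set, a log2 difference of -0.87 ± 0.21 (adjusted p = 0.0282). It passed in 3 of the 8 fits that left out 1 library and missed without WT 3, WT 4, KO 1, KO 2 and KO 4, with an adjusted p of up to 0.0751. The stem marker list gave 1 call without WT 3. Of the 9 oligodendrocyte lineage markers tested 4 were called lower, with Mog at 0 in all 8 libraries and a summed level of 2029.6 to 2859 CPM in replicates 1-2 and 1424 to 1962 CPM in replicates 3-4. Cspg4, the NG2 proteoglycan of oligodendrocyte precursors, read 405 and 374 CPM in WT 1 and WT 2 and 249 and 187 CPM in KO 1 and KO 2. Against these, WT 3 and WT 4 had 139 and 122 CPM and KO 3 and KO 4 112 and 68.0 CPM. The sets did not overlap, and the log2 difference of Cspg4 was -1.43 ± 0.19 (adjusted p = 0.0101), kept in all 8 single-library omissions. Of 16 microglia and macrophage markers 10 were at 0 in all 8 footprint libraries, including Aif1, Cx3cr1, Trem2 and Tyrobp, and the 2 tested were called lower. Of the endothelial markers 3 were at 0, and of the 5 erythroid markers 3. These are bulk cultures, in which fewer cells of a type and less RNA per cell cannot be told apart.

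**Figure D3:**
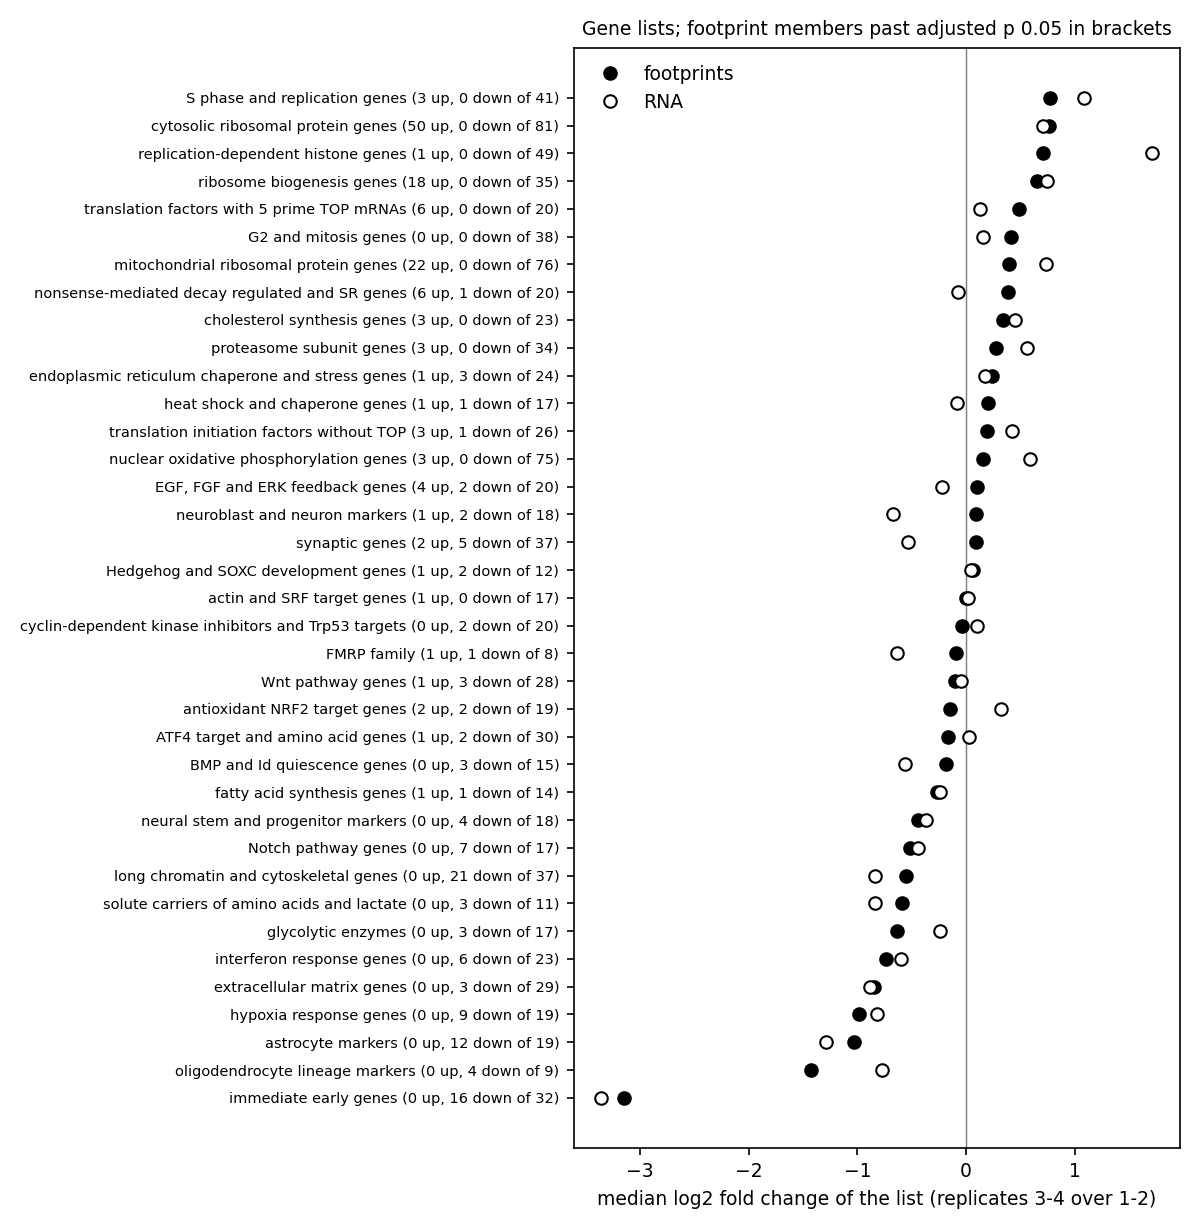
Median log2 difference between replicates 3-4 and replicates 1-2 of the members of each gene list, in footprints and in RNA. Immediate early genes (-3.14 in footprints) and astrocyte markers lie on the lower side, and S phase, histone and ribosomal protein genes on the higher side.

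Some genes had footprints in replicates 3-4 and next to none in replicates 1-2, and there mostly in the knockout cultures. A set of 8 genes had at most 3 footprint counts over the 4 libraries of replicates 1-2 and at least 50 over those of replicates 3-4, a rule chosen after these values had been seen, while the converse held for 1 gene, Scube2, with 116 counts against 3. The 8 are Slc17a7 (the vesicular glutamate transporter VGLUT1), Stmn2 (a microtubule regulator of neurites), Eef1a2 (the elongation factor isoform of neurons and muscle), Sv2b (a synaptic vesicle protein), Sst (somatostatin, of inhibitory interneurons), Vsnl1 (a calcium sensor), Grin2b (an NMDA receptor subunit) and Spock1 (a brain proteoglycan). Slc17a7 had 0 footprint counts in replicates 1-2 and 12, 12, 149 and 116 in WT 3, WT 4, KO 3 and KO 4, at least 136-fold higher when 3 counts over the 4 libraries of replicates 1-2 are taken as the floor. Stmn2 had 1 count in replicates 1-2 and 9, 21, 140 and 132 counts in WT 3, WT 4, KO 3 and KO 4, and Eef1a2 had 1 count and then 19, 20, 177 and 198. In all 8 genes KO 3 and KO 4 were both above WT 3 and WT 4, as in 13.9% of all genes tested, and the ratio of knockout to wild-type level in replicates 3-4 ran from 6.50 to 10.9 with a median of 8.55. It was 9.78 for Slc17a7, of excitatory neurons, and 8.84 for Sst, of inhibitory ones. In RNA of the same cultures mean levels of the 8 genes in replicates 3-4 were at most 1.26 CPM with a median of 0.404 CPM. Mean RNA levels were higher in replicates 1-2 for all of them but Sv2b (0.340 CPM against 0.605 CPM in replicates 3-4). Slc17a7 read 3.01 against 1.26 CPM and Grin2b 1.44 against 0.652 CPM, from 3 to 103 RNA counts a gene over the 8 libraries. Of the 8 genes 1 was tested in RNA, and Sst had 0 RNA counts in replicates 3-4 where its footprints numbered 209. Whether the footprint libraries KO 3 and KO 4 hold reads of another sample was not tested, which bears on these levels and ratios. It also bears on other genes with KO 3 and KO 4 above WT 3 and WT 4, among them Gad1, Clstn3, Pcdh8, Syp and Dnajc6, named next, and Pla2g7, named further below.

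In the wider lists of neuronal genes few members were called. Of 18 neuroblast and neuron markers tested 1 (Stmn2) was called higher and 2 lower, Prox1, the homeobox factor of dentate granule cells (log2 difference -1.45, adjusted p = 0.0288), and Ncam1, a neural adhesion molecule (-0.60, adjusted p = 0.0406). Of 37 synaptic genes 2 were called higher and 5 lower. In both lists these shares were near the 7.56% and 11.5% of all genes called higher and lower. Without WT 2, 3 neuron markers and 5 synaptic genes were called higher. The neuron markers of WT 2 stood above those of the other libraries of replicates 1-2, with a mean log2 CPM of 3.87 against 2.59 to 2.60, and the part of this in the results on neuronal genes was not tested. In the test for a different genotype effect in the 2 sets, 0 of 11472 genes passed (0%) with edgeR and 251 (2.19%) had an unadjusted p under 0.05, while DESeq2 called 27, all with a higher knockout to wild-type ratio in replicates 3-4, and edgeR called 121 without WT 2, 110 of them lower. The genes with the smallest p of that test were Gad1, Clstn3, Pcdh8, Syp and Dnajc6. Gad1, which makes the transmitter GABA, read 9.81 and 10.2 CPM in WT 1 and WT 2 and 8.80 and 6.66 CPM in KO 1 and KO 2. For WT 3 and WT 4 the level was 3.35 and 3.89 CPM, and for KO 3 and KO 4 23.3 and 19.6 CPM. Knockout and wild-type cultures of replicates 1-2 were close to one another, whereas in replicates 3-4 the knockout cultures were above the wild-type ones. The difference of the genotype effects on the log2 scale was 2.94 ± 0.38 for Gad1 (unadjusted p = 0.000113, adjusted p = 0.857). Syp, the synaptic vesicle protein synaptophysin, read 9.22 and 9.88 CPM in WT 1 and WT 2 and 9.09 and 9.39 CPM in KO 1 and KO 2. In WT 3 and WT 4 it had 9.84 and 10.7 CPM and in KO 3 and KO 4 33.2 and 36.1 CPM, so that KO 3 and KO 4 stood above 6 libraries of like level. Clstn3 and Dnajc6, a synaptic adhesion protein and a clathrin uncoating factor, had knockout over wild-type log2 ratios of mean CPM of 3.00 and 3.06 in replicates 3-4 against -1.94 and -1.24 in replicates 1-2. The ratios of replicates 1-2 rest on low levels, 0.126 CPM in knockout and 0.482 CPM in wild type for Clstn3. For Dnajc6 these were 0.458 and 1.08 CPM. RNA of Gad1 was lower in replicates 3-4 (log2 difference -2.77, adjusted p = 0.0100), against 0.06 in footprints.

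**Figure D4:**
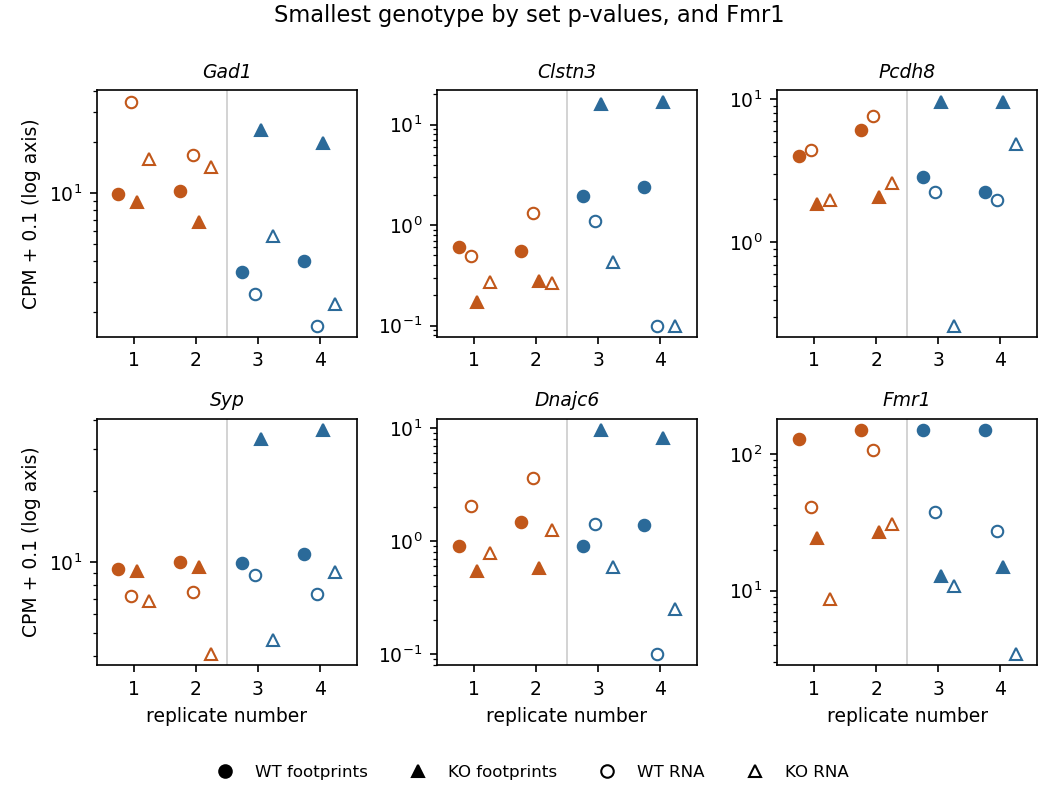
CPM + 0.1 on a log axis by replicate number for the 5 genes with the smallest p in the test for a genotype effect that differs between the sets, and for Fmr1, with filled symbols for footprints and open ones for RNA. In footprints KO 3 and KO 4 are the highest libraries of Gad1 (23.3 and 19.6 CPM) and of Syp (33.2 and 36.1 CPM).

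Most ribosomal protein genes were higher in the footprints of replicates 3-4. Of 81 cytosolic ribosomal protein genes tested, 50 were called higher, where 7.56% of all genes were, and 0 lower, with a median log2 difference of 0.76. In RNA 64 of 79 were called higher, where 12.1% of all genes were. They took 2.84%, 5.14%, 4.68% and 4.88% of footprint counts in WT 1, WT 2, KO 1 and KO 2, and 7.07% to 8.32% in replicates 3-4, so the sets did not overlap and WT 1 was the lowest. The TOP tract at the start of 4 members is shown because it is the element through which translation of these mRNAs is adjusted. Each stretch covers 15 bases before and 15 bases from the RefSeq start, and capitals mark the tract.
Rpl35a (chr16:33056467-33056496, plus strand): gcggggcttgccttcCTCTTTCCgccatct
Rplp2 (chr7:141447636-141447665, plus strand): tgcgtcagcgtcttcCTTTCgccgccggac
Rps18 (chr17:33955651-33955680, minus strand): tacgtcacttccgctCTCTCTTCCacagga
Rps6 (chr4:86857353-86857382, minus strand): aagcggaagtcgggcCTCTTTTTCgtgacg
A start with a C and at least 4 further pyrimidines was found in 14 of 61 ribosomal protein genes with a window (23.0%) and in 813 of all 27025 genes (3.01%). The count was made on the gene's strand at annotated starts alone. With 32851 starts listed, a gene was counted when any of its starts matched. Rpl35a, of the large subunit, read 273 and 382 CPM in WT 1 and WT 2 and 433 and 349 CPM in KO 1 and KO 2. The WT 3 and WT 4 libraries held 742 and 942 CPM and the KO 3 and KO 4 libraries 809 and 787 CPM. Its lowest library of replicates 3-4, WT 3, was above its highest of replicates 1-2, KO 1. The log2 difference of Rpl35a was 1.20 ± 0.17 in footprints (adjusted p = 0.0103, kept in all 8 single-library omissions) and 0.58 ± 0.17 in RNA (adjusted p = 0.0406). Rplp2, of the ribosomal stalk, Rps18 and Rps6, the small-subunit target of S6 kinase, were higher by 1.04, 1.02 and 0.94 in footprints and 0.76, 0.97 and 0.55 in RNA. Without WT 3, 2 members of the list were called higher, without WT 1, 68, and without both replicate 1 cultures, 54. In the fit with same-numbered cultures correlated (limma-voom) 26 were called. Reads of ribosomal protein genes can be shared with processed pseudogenes, and how they were assigned is not given in the sources used here.

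Other parts of the translation apparatus had smaller shares called. Of 20 translation factors with TOP mRNAs 6 were called higher, of 35 ribosome biogenesis genes 18, and of 76 mitochondrial ribosomal protein genes 22, against 46 of 75 in RNA. Of all genes tested in RNA 12.1% were called higher there. Of 26 initiation factors without TOP mRNAs 3 were called higher, where 7.56% of all genes were, and 1 lower, Eif4a2, an RNA helicase (log2 difference -0.50 ± 0.15, adjusted p = 0.0495), and 7 had a negative difference. Eef1b2, a subunit of the elongation factor exchange complex, read 403 to 448 CPM in replicates 1-2 and 656 to 907 CPM in replicates 3-4, a log2 difference of 0.92 ± 0.12 (adjusted p = 0.0101) that held in all 8 omissions. Eef1a1, the abundant elongation factor, read 5093 and 7400.5 CPM in WT 1 and WT 2 and 6824 and 7019.8 CPM in KO 1 and KO 2. Against these, WT 3 and WT 4 had 10220 and 12205 CPM and KO 3 and KO 4 10367 and 9880.1 CPM. All 4 libraries of replicates 3-4 were above the other 4, with a log2 difference of 0.70 ± 0.16 (adjusted p = 0.0262), but the difference of its RNA was 0.06 (adjusted p = 0.750). Eef1a1 passed in 2 of the 8 fits that left out 1 library and missed without WT 3, WT 4, KO 1, KO 2, KO 3 and KO 4, with an adjusted p of up to 0.0800. Npm1, the nucleolar chaperone nucleophosmin, was higher by 0.79 ± 0.19 (adjusted p = 0.0296). Npm1 passed in 2 of the 8 fits that left out 1 library and missed without WT 3, WT 4, KO 1, KO 2, KO 3 and KO 4, with an adjusted p of up to 0.0863. Without WT 3 the calls numbered 1 for TOP factors, 0 for ribosome biogenesis and 0 for mitochondrial ribosomal proteins, and biogenesis also had 0 without WT 4 or KO 4.

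Replication genes all leaned to replicates 3-4 but seldom passed the test in the footprints. All 41 S phase and replication genes had a positive log2 difference, with a median of 0.78. Yet 3 were called higher in footprints, where 7.56% of all genes were, against 23 in RNA, where 12.1% of all genes were. In footprints 21 were called without WT 1 but 1 without KO 1, KO 2 or any library of replicates 3-4. Ccne1, cyclin E1, which drives entry into S phase, read 9.88 and 16.8 CPM in WT 1 and WT 2 and 21.5 and 18.5 CPM in KO 1 and KO 2. For WT 3 and WT 4 the level was 56.6 and 35.1 CPM, and for KO 3 and KO 4 53.0 and 39.6 CPM. The sets did not overlap, and WT 1 was the lowest of all. The log2 difference of Ccne1 was 1.49 ± 0.25 (adjusted p = 0.0136) in footprints, kept in all 8 omissions, and 1.53 in RNA. Of 38 genes of G2 and mitosis edgeR called 0 in either direction, with a median of 0.41. At an unadjusted p under 0.05 there were 2 higher and 0 lower, and DESeq2 called 2 higher. Mki67, the proliferation marker Ki-67, read 229.6 and 578 CPM in WT 1 and WT 2 and 1198 and 1021 CPM in KO 1 and KO 2. In WT 3 and WT 4 it had 687 and 455 CPM and in KO 3 and KO 4 767 and 584 CPM, so WT 1 was the lowest library and KO 1 the highest. The log2 difference of Mki67 was -0.11 ± 0.37 (adjusted p = 0.856). Of 49 replication-dependent histone genes tested in footprints 1 was called higher, with a median of 0.71, whereas 53 of 59 tested in RNA were called higher, with a median of 1.71. Histone genes of a class are near-identical copies, so the split of reads among them is uncertain. Without WT 1, 8 histone genes were called in footprints.

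Several hypoxia response genes were lower in replicates 3-4. Of 19 tested 9 were called lower and 0 higher, with a median log2 difference of -0.99, and single omissions gave 2 calls without WT 3 or WT 4 and 13 without WT 1. Pdk1, the kinase that inactivates pyruvate dehydrogenase (chromosome 2, 71873215 to 71903858), read 14.4 and 49.0 CPM in WT 1 and WT 2 and 31.7 and 33.9 CPM in KO 1 and KO 2. The WT 3 and WT 4 libraries held 5.28 and 6.27 CPM and the KO 3 and KO 4 libraries 10.6 and 6.02 CPM. The lowest library of replicates 1-2 was above the highest of replicates 3-4. The log2 difference of Pdk1 was -2.21 ± 0.39 (adjusted p = 0.0144), with -2.42 in RNA, and it passed in 6 of the 8 fits that left out 1 library and missed without WT 3 and WT 4, with an adjusted p of up to 0.0567. Of 17 glycolytic enzymes 3 were called lower, with 0 without WT 3, WT 4 or KO 2 and 6 without WT 1. Aldoc, the aldolase of astrocytes, which the astrocyte list also holds, was lower, with a log2 difference of -1.82 ± 0.37 (adjusted p = 0.0203). Aldoc passed in 4 of the 8 fits that left out 1 library and missed without WT 3, WT 4, KO 2 and KO 4, with an adjusted p of up to 0.0663. Over all genes tested, 7.56% were called higher and 11.5% lower in footprints, and 12.1% were called higher in RNA. Of 75 nuclear genes of oxidative phosphorylation 3 were called higher in footprints and 25 of 70 in RNA, and of 34 proteasome subunits 3 and 20 of 34. Neither list gave a call without WT 3, WT 4, KO 2 or KO 3. The metallothioneins Mt1 and Mt2, which bind zinc and copper, were lower in all 4 libraries of replicates 3-4. Mt2 read 210.3 and 214 CPM in WT 1 and WT 2 and 102 and 259.8 CPM in KO 1 and KO 2. Against these, WT 3 and WT 4 had 42.0 and 29.2 CPM and KO 3 and KO 4 31.4 and 26.8 CPM, a log2 difference of -2.60 ± 0.29 (adjusted p = 0.00969), and that of Mt1 was -1.98 ± 0.24 (adjusted p = 0.0100). Both held in all 8 omissions, and neither gene passed the count filter in RNA, so the direction could not be set beside it. Their RNA levels were 0 to 3.38 CPM for Mt1 and 0 to 2.55 CPM for Mt2, and whether the RNA kit or the annotation of short genes set them so low was not tested.

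Interferon-inducible genes were lower in part: 6 of 23 were called lower and 0 higher, with 1 call without WT 3, WT 4 or KO 2 and 7 without WT 2. Gbp2, an interferon-induced GTPase, read 13.0 to 37.8 CPM in replicates 1-2 and 0.973 to 5.95 CPM in replicates 3-4, a log2 difference of -3.09 ± 0.49 (adjusted p = 0.0123, kept in all 8 omissions). Of 29 extracellular matrix genes 3 were called lower, no larger a share than the 11.5% of all genes, among them Ncan, the brain proteoglycan neurocan, at 1224 to 1726 CPM and 451 to 838 CPM in the first and second set (log2 difference -1.34 ± 0.16, adjusted p = 0.00969, kept in all 8 omissions). Without WT 4 or KO 2 the matrix list gave 1 call and without WT 2 it gave 4.

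The differences went with mRNA length, as a description over genes with no test: medians were positive for short mRNAs and negative for long ones, over a wider span in RNA. By 10 bins of the length implied by the ratio of counts to TPM, over 7455 genes, the median log2 difference in footprints fell from 0.20 in the bin of the shortest to -0.24 in that of the longest. In RNA it fell from 0.53 to -0.52. By footprint abundance the medians of 10 bins lay between -0.07 and 0.10. In a list of 37 long genes of chromatin and the cytoskeleton 21 were called lower and 0 higher in footprints, with a median of -0.55. In RNA 24 of 37 were called lower. Over all genes tested, 11.5% were called lower in footprints and 13.1% in RNA. Dync1h1, the heavy chain of dynein (chromosome 12, 110601395 to 110666944), read 496 and 279 CPM in WT 1 and WT 2 and 235 and 369 CPM in KO 1 and KO 2. For WT 3 and WT 4 the level was 121 and 80.4 CPM, and for KO 3 and KO 4 98.6 and 102 CPM. All 4 libraries of replicates 3-4 were below the other 4, with a log2 difference of -1.77 ± 0.25 (adjusted p = 0.0103). Kmt2c, a histone H3 lysine methyltransferase, and Macf1, a linker of microtubules and actin, were lower, with log2 differences of -1.51 ± 0.15 and -1.14 ± 0.18 in footprints (adjusted p = 0.00942 and 0.0121) and of -2.24 and -2.12 in RNA. Each of these 3 genes held in all 8 omissions, while the list gave 8 calls without WT 3 and 23 without WT 1. The part of mRNA length in the other differences was not tested.

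**Figure D5:**
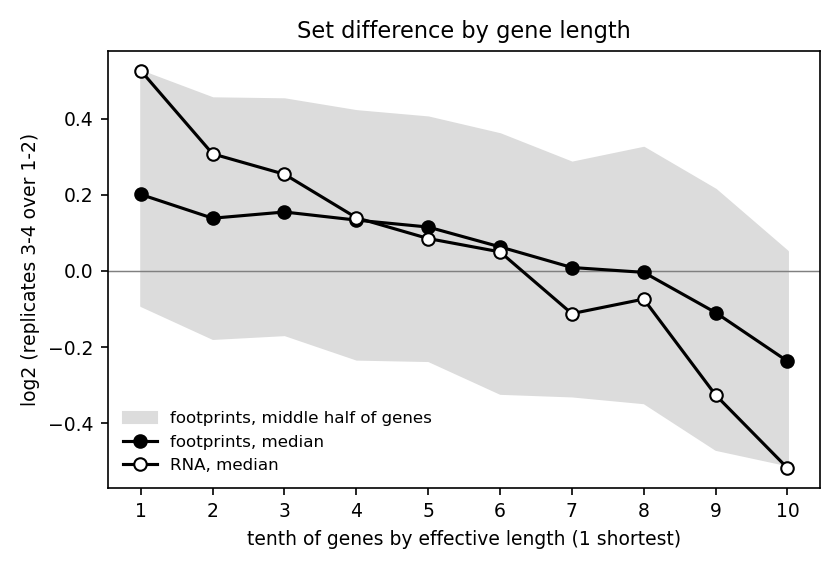
Median log2 difference between replicates 3-4 and replicates 1-2 in 10 bins of relative mRNA length, in footprints and in RNA, over 7455 genes. The footprint medians run from 0.20 to -0.24 and the RNA medians from 0.53 to -0.52.

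The largest rises had the same sign in RNA for some genes and could not be tested there for others. Of 25 genes called higher with a log2 difference above 2, 6 were called higher in RNA, 5 were tested and not called, and 14 did not pass the count filter in RNA. In 16 of the 25 both KO 3 and KO 4 were above WT 3 and WT 4, an order found in 13.9% of all genes tested and in 108 (12.5%) of the 867 called higher. The 25 include the 7 called genes of the 8 described above as nearly absent from replicates 1-2. In all 8 of those KO 3 and KO 4 were above WT 3 and WT 4, and 1 was tested in RNA, so these counts are in part the same finding. Lamb3, a laminin chain of basement membranes (chromosome 1, 193294353 to 193343878), read 0.799 and 0.912 CPM in WT 1 and WT 2 and 0.953 and 1.66 CPM in KO 1 and KO 2. In WT 3 and WT 4 it had 6.39 and 9.08 CPM and in KO 3 and KO 4 4.37 and 21.5 CPM. All 4 libraries of replicates 3-4 were above the other 4, with KO 4 the highest, and the log2 difference was 3.23 ± 0.52 in footprints (adjusted p = 0.0123) and 3.45 in RNA (adjusted p = 0.00767). Tcf7, a DNA-binding effector of Wnt signalling, rose from 0.726 to 2.79 CPM in replicates 1-2 to 7.41 to 14.4 CPM in replicates 3-4, by 2.64 ± 0.31 on the log2 scale (adjusted p = 0.00969) and by 2.86 in RNA. Neurl1a, a ubiquitin ligase of the Neuralized family, was higher by 2.12 ± 0.23 (adjusted p = 0.00969) and by 2.18 in RNA. Pla2g7, a secreted phospholipase, had 0.508 and 0.456 CPM in WT 1 and WT 2 and 0.880 and 0.832 CPM in KO 1 and KO 2. The WT 3 and WT 4 libraries held 1.73 and 2.49 CPM and the KO 3 and KO 4 libraries 14.1 and 20.7 CPM. Here KO 3 and KO 4 were again well above WT 3 and WT 4, the log2 difference was 3.36 ± 0.51 (adjusted p = 0.0116), and the gene did not pass the filter in RNA. Whether KO 3 and KO 4 hold footprint reads of another sample was not tested, which bears on Pla2g7 as well. Lamb3, Tcf7, Neurl1a and Pla2g7 held in all 8 single-library omissions. Htr3a, the serotonin-gated ion channel subunit, was higher by 2.22 ± 0.41 (adjusted p = 0.0156). Htr3a passed in 6 of the 8 fits that left out 1 library and missed without WT 3 and KO 2, with an adjusted p of up to 0.0612. Rhox5, an X-linked homeobox gene (2.15 ± 0.60, adjusted p = 0.0439), passed in 2 of the 8 fits that left out 1 library and missed without WT 1, WT 3, WT 4, KO 1, KO 2 and KO 3, with an adjusted p of up to 0.118.

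The difference in footprints over the difference in RNA asks whether the sets differed beyond mRNA level. In 1 fit over all 16 libraries, with the interaction of assay and set, 0 of 10863 genes passed (0%), the smallest adjusted p was 0.160, and 1412 genes (13%) had an unadjusted p under 0.05. With the culture as a block, 0 passed with a smallest adjusted p of 0.0535, and 3267 genes (30.1%) had an unadjusted p under 0.05, while DESeq2 called 50 genes, edgeR without the count filter 5 and limma-voom 1. Azin1, the antizyme inhibitor, whose translation is known to respond to polyamines, read 34.3 and 26.3 footprint CPM in WT 1 and WT 2 and 36.8 and 24.8 CPM in KO 1 and KO 2. Against these, WT 3 and WT 4 had 74.2 and 64.0 CPM and KO 3 and KO 4 75.7 and 60.6 CPM. Its log2 ratio of footprint to RNA CPM was -1.39 and -2.50 in WT 1 and WT 2, -1.30 and -2.29 in KO 1 and KO 2, -0.39 and -0.64 in WT 3 and WT 4 and -0.28 and -0.32 in KO 3 and KO 4. Its footprints were called higher (log2 difference 1.17, adjusted p = 0.0107) and its RNA was not (-0.32, adjusted p = 0.250), but the difference between them, 1.50 ± 0.26, did not pass (unadjusted p = 5.56e-05, adjusted p = 0.160). Eif1b, a start-codon selection factor, went the other way, with footprints lower at a log2 difference of -1.07 (adjusted p = 0.0101), an RNA difference of 0.21 and a difference between the assays of -1.26 ± 0.26 (unadjusted p = 0.000254, adjusted p = 0.313). Its log2 ratios of footprint to RNA CPM were 2.80 and 2.80 in WT 1 and WT 2, 3.54 and 3.27 in KO 1 and KO 2, 1.78 and 1.96 in WT 3 and WT 4 and 1.65 and 1.94 in KO 3 and KO 4.

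The number of calls in this test depended on the replicate 1 cultures. No single-library omission gave a call, but with both replicate 1 cultures left out, a choice made after the data had been seen, 1096 of 11178 genes (9.8%) passed, 796 (7.12%) with higher and 300 (2.68%) with lower footprints over RNA in replicates 3-4. In that fit 18 of 49 histone genes were lower with a list median of -1.14, as were 12 of 71 oxidative phosphorylation genes, 8 of 75 mitochondrial ribosomal protein genes and 7 of 34 proteasome subunits. Higher were 9 of 38 genes of G2 and mitosis, 6 of 20 splicing factor and decay-regulated genes, 5 of 20 TOP translation factors, 6 of 37 long genes and 3 of 16 chaperone genes. Azin1 passed in it with 2.00 ± 0.19 (adjusted p = 0.00313), and the values for Eif1b were -1.19 ± 0.30 (adjusted p = 0.0426). Identifier length is the same within each footprint set of this fit as in the full one, so the share of library construction in these ratios cannot be told apart from that of translation.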

How the data were processed

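Per the labels, ribosome footprints and RNA of 8 cultures were sequenced. Tools listed per the submitters' processing notes, with no roles, are RSEM 1.2.11, TopHat2 2.0.9 and Bowtie2 2.1.0, besides cutadapt 1.7.1, bedtools 2.22.0 and SAMtools 0.0.19, with mm10 as the build, and collapsing by identifier is not given in the sources used here. The authors deposited estimated counts per gene as whole numbers (20436 rows) and, as a score, TPM values without decimals. The 27 rows that hold a bare number in place of a symbol (0.244% to 0.422% of a library) were dropped, which left 20409 genes, 19269 with a RefSeq symbol that gave coordinates.

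Counts were fitted with edgeR 4.0.16 in R 4.3.3 (TMM, filterByExpr by set, quasi-likelihood, Benjamini-Hochberg, threshold 0.05) on set plus genotype, footprints and RNA apart. The footprint over RNA test used assay by set over all 16 libraries, and the interaction genotype by set. CPM are TMM-scaled. The code was tested on simulated data. Alternatives were limma 3.58.1, DESeq2 1.42.0, scalings, filters, omissions of libraries and a block on replicate number. Genes named are the 10 largest falls and rises among calls that do not overlap between sets with a mean of at least 5 CPM, the smallest p in the 2 interactions, and up to 4 members a list. Members, lists and rules were chosen with earlier results of these data known. Genes with sequences, the genes absent from 1 set, and further list members were chosen after their values were seen. Results for 2 genes that the rule names are not reported here. In the set tests and the genotype by set test, p-values measure the spread between cultures, taken as independent. The main footprint over RNA test takes the footprint and RNA libraries of a lysate as independent. Its p-values therefore measure the spread between libraries.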

Additional observations from a re-analysis of the deposited data

Results flagged for a closer look

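Within a set of 4 footprint libraries, 1 library stood apart from the other 3 in 11 of 150 list and gene values examined, with a gap past Dixon's critical value for 4 samples, which chance alone gives in about 1 of 20. In mean log2 CPM of a list's tested members, WT 1 was below the rest of replicates 1-2 for S phase and replication genes (5.01 against 6.41 to 6.49), G2 and mitosis genes (5.62 against 7.43 to 7.73), initiation factors without TOP mRNAs (7.05 against 7.42 to 7.48), proteasome subunits (7.49 against 7.89 to 7.96) and endoplasmic reticulum chaperones (7.34 against 7.65 to 7.68). WT 2 was above the rest of replicates 1-2 for neuroblast and neuron markers (3.87 against 2.59 to 2.60). In replicates 3-4, KO 4 was lower for immediate early genes (2.74 against 3.24 to 3.30), WT 4 higher for ribosomal protein genes (9.77 against 9.54 to 9.56), and KO 3 higher for hypoxia response genes (5.25 against 4.88 to 4.94) and for endothelial and mural markers (2.18 against 1.24 to 1.27). Rnf20, a histone H2B ubiquitin ligase, was lower in KO 2 (88.5 CPM) than in the other libraries of replicates 1-2 (95.5 to 96.2 CPM). The rows with a bare number in place of a symbol, which entered no comparison, held 381877 counts over the 8 footprint libraries.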

How the results depend on the processing

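Against 2185 footprint calls with edgeR, DESeq2 gave 3398, and sums of the same-numbered WT and KO libraries gave 207, the WT libraries alone 0 and the KO libraries alone 70. With KO 3 and KO 4 left out there were 2. Leaving out 1 library gave 319 to 2222 footprint calls and leaving out both cultures of a replicate number 0 to 1694. RNA calls (2796) were 0 with summed cultures, 0 in the WT libraries alone and 1 in the KO libraries alone, 1091 to 2855 with 1 library left out and 5 to 3212 with a replicate number left out. Footprint over RNA calls (0) were 5 with no filter, 50 with DESeq2, 1 with limma-voom, 0 in each fit without 1 library and 1096 without replicate 1. The calls in the genotype by set interaction (0) were 27 with DESeq2 and 0 to 121 with 1 library left out. Fewer samples lower the power of every such fit; beyond that the cause was not tested.

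With the replicate number as a block (limma-voom) the footprint calls were 1017 and the RNA calls 1325. Same-numbered WT and KO footprint libraries deviated together from their genotype means (r 0.379 to 0.540). For deviations from genotype and set means, r was -0.112 to 0.140 in footprints and -0.0678 to 0.280 in RNA. Differently numbered WT and KO pairs of the same set were lower, at -0.386 to -0.278 and -0.439 to -0.262. Such deviations sum to 0 within a set, so an r near 0 does not show that same-numbered cultures were independent. The correlation estimated for the block was 0.173 in footprints and 0.264 in RNA. The sets share no replicate number, so the block joins WT and KO within a set. Of the values of single genes under alternatives, 2423 kept their side of the threshold, 1504 no longer passed and 33 newly passed. Of the values of called genes 0 changed sign, and of 486 values of genes not called 22 did, Mki67 among them (-0.45 to 0.10 with 1 library left out). Of list medians 37 moved by more than the spread and 578 did not. The RNA libraries held fewer counts (5343042 to 6600023) than the footprint libraries (9430732 to 17220236). Only the footprint libraries were thinned to equal depth, and the part of depth in the RNA calls was not tested.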
